A study of Homo sapiens with 24 samples.

Results

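The inflammatory cytokines and chemokines followed here are TNF, IL1B, IL6, CXCL8, CXCL1, CXCL2, CCL2, CCL3, CCL5 and CCL20, 10 genes of the 20046 named on the arrays. They were chosen by name, and every probe annotated to one of them was taken, which gave 12 probes of 47231: 2 for CXCL8, 2 for CCL5 and 1 for each of the others. The values come from 24 BeadChip arrays (Illumina HumanHT-12 V4) of 3 established cancer cell lines, T24 from a bladder carcinoma, HL60 (HL-60 in the labels) from a promyelocytic leukemia and HCT116 from a colon carcinoma. Each line had 4 conditions with 2 arrays each. Cells of the combinatorial treatment received 5-Aza-CdR (AZA in the labels) for 24 hours at 1 µM (T24), 0.1 µM (HL60) or 0.3 µM (HCT116), and then 10 µM clorgyline every day. The single treatments were 5-Aza-CdR alone for those 24 hours and clorgyline alone every day, and the controls were untreated. RNA was taken at day 18 for T24 and HL60 and at day 20 for HCT116, so the 5-Aza-CdR arrays show cells long after the drug was removed. 5-Aza-CdR is a nucleoside analog that traps DNA methyltransferases on DNA, and clorgyline is a monoamine oxidase inhibitor that also inhibits the histone demethylase LSD1. Each tumour type is represented by a single line, and neither the labels nor the methods say that the 2 arrays of a condition came from separate cultures, so a p value here reflects only how far the arrays of a condition differ, which may be technical.

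These genes encode secreted proteins that call leukocytes to sites of infection or injury. TNF and the interleukins IL-1β and IL-6 act on receptors of many cell types, and the chemokines direct migration, those of the CXC family named here mainly of neutrophils, and those of the CC family of monocytes, T cells and other cells. Many of them are transcribed when the transcription factor NF-kB enters the nucleus, and several of their mRNAs carry AU-rich elements that mark them for rapid decay. Myeloid cells are a main source of most of these proteins, whereas epithelial cells mostly make chemokines.

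The genes lie in small clusters. In the RefSeq annotation of build GRCh38.p14, CXCL8 (chr4:73740569-73743716), CXCL1 (chr4:73869393-73871308) and CXCL2 (chr4:74097040-74099195) lie in a single stretch of chromosome 4, and CCL2 (chr17:34255285-34257203), CCL5 (chr17:35871491-35880360) and CCL3 (chr17:36088256-36090143) lie on chromosome 17. TNF is at chr6:31575565-31578336, IL1B at chr2:112829751-112836779, CCL20 at chr2:227813842-227817556 and IL6 at chr7:22727200-22731998. The letters GGNNTTTCC, a form that some NF-kB sites take, were searched on both strands of the 250 bases before each gene's start. No other motif, and no other form of the NF-kB site, was searched. The RefSeq promoter table held 8 of the 10 genes, without CCL2 and CCL5. IL6, CXCL8, CXCL1, CXCL2 and CCL20 each had a match, TNF, IL1B and CCL3 had none, and 5.48% of all 35116 promoters of the table had one. The windows below are shown because CXCL8, CXCL1 and CXCL2 carry the same 9 letters while only CXCL8 was above background in HL60, and because TNF, the member with the widest difference in HL60, has no match. The capitals mark the match, and each sequence is written 5′ to 3′ on the strand of the gene. They are CXCL8 (chr4:73740448-73740516, plus strand, match 91 bases before the start), CXCL1 (chr4:73869285-73869353, plus strand, 78 bases), CXCL2 (chr4:74099234-74099302, minus strand, 77 bases), IL6 (chr7:22727098-22727166, plus strand, 72 bases), CCL20 (chr2:227813733-227813801, plus strand, 79 bases, with the match on the opposite strand) and the 120 bases before the start of TNF (chr6:31575445-31575564, plus strand).
CXCL8: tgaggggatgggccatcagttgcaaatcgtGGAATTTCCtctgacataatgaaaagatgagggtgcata
CXCL1: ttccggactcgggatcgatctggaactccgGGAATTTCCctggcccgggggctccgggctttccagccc
CXCL2: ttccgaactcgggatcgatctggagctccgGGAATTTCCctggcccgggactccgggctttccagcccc
IL6: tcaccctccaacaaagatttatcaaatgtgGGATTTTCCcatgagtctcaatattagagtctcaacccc
CCL20: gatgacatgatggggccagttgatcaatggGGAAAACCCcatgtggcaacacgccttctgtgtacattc
TNF: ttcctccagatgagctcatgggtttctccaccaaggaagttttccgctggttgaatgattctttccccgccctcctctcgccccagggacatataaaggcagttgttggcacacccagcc
Compared position by position without gaps, the CXCL1 and CXCL2 windows were identical at 56 of 69 bases. Bases after an extra or missing base were therefore compared out of step, which can only be seen in the sequences. Each window holds a second match in lower case that begins 53 bases before the start. A match is a string of letters and was not tested as a binding site, and its absence says only that these letters are not in the 250 bases searched.

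The arrays were checked against their labels before the genes were compared. Of 8 intestinal epithelium markers, EPCAM, CDX2 and CDH1 were above background on every treated array labelled HCT116 and on every array labelled T24, and on both arrays labelled HCT116 control EPCAM alone was. EPCAM read 11.9 to 12.6 on the treated HCT116 arrays, 12.5 to 12.9 on the T24 arrays and 7.84 to 7.88 on the HCT116 control arrays. Across all probes, the treated HCT116 arrays correlated with the T24 arrays at a median of 0.985 and with their own labelled controls at 0.907. The summed log2 level of the 7 urothelial and mesenchymal markers over background was 6.54 to 9.64 on the treated HCT116 arrays. It was 6.53 to 9.21 on the T24 arrays and 20.7 to 21.0 on the arrays labelled HCT116 control. The T24 arrays thus carried CDX2, an intestinal marker that a bladder line should lack, and the HCT116 controls had EPCAM near background and neither CDX2 nor CDH1 above it. The lines are therefore named by their labels throughout, and the HCT116 controls entered no test. On the HL60 arrays, 6 of 7 measured promyelocytic markers were above background in at least 1 condition, PTPRC being the exception, and no intestinal marker was.

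The deposited values are log2 intensities normalized within a line, so levels were compared within a line and never between probes. A probe was taken as above background in a condition when both arrays exceeded the 95th percentile of the array's 457 olfactory receptor probes, which was 8.12 to 8.15 for T24, 7.61 to 7.65 for HL60 and 7.73 to 7.76 for HCT116. By this measure, the share of all probes above background in at least 1 condition was 42.5% for HL60, 40.9% for T24 and 37.5% for the treated HCT116 arrays, and 29.9% were above it on the HCT116 control arrays. Counted in the same way, 7 of the 10 genes were above background in HL60 (TNF, IL1B, CXCL8, CCL2, CCL3, CCL5 and CCL20), 5 in T24 (CXCL8, CXCL1, CXCL2, CCL5 and CCL20), 4 on the treated HCT116 arrays (CXCL8, CXCL1, CXCL2 and CCL5) and 7 on the HCT116 control arrays (TNF, IL1B, IL6, CXCL8, CXCL1, CXCL2 and CCL5). With the 75th percentile of all probes as the limit, the counts for T24 and for the treated HCT116 arrays were 2 each, CXCL8 and CCL5. The count was 5 for HL60, without IL1B and CCL20, and 6 for the HCT116 control arrays, without TNF. Differences were tested with limma within each line. A probe counted as called when its fold change exceeded 2 and its unadjusted p was under 0.01, as the methods set it, and the words rose and fell are used for a Benjamini-Hochberg adjusted p under 0.05 over all probes. In bulk RNA, fewer producing cells and less RNA per cell cannot be told apart.

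In HL60 cells, TNF, a main early cytokine of the inflammatory response, fell under every treatment, and its fall under the combinatorial treatment was the largest difference from control among the 10 genes. TNF read 11.84 and 11.75 under the combinatorial treatment, 12.09 and 12.14 under 5-Aza-CdR, 13.19 and 12.94 under clorgyline, and 13.998 and 13.95 in control cells. The 4 conditions did not overlap. On the log2 scale TNF fell by 2.18 when both drugs were given (SE 0.10, 4.54-fold lower, adjusted p = 2.916e-08 from limma). It fell by 1.86 with 5-Aza-CdR (SE 0.10, 3.63-fold lower, adjusted p = 1.633e-07 from limma) and by 0.91 under clorgyline alone (limma adjusted p = 7.078e-04, SE 0.10). That last difference missed the fold limit, and leaving out clorgyline replicate 1 took it to -1.03, past the limit. The log2 difference of the combinatorial treatment from clorgyline was -1.28 (adjusted p = 4.57e-06 from limma), and its difference from 5-Aza-CdR of -0.32 had a 95% interval of -0.53 to -0.11 and an adjusted p of 0.118 from limma. The combined difference was smaller in size than the sum of the single differences by 0.59 (interaction, SE 0.14, unadjusted p = 0.001009, adjusted p = 0.194 from limma).

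**Figure D1:**
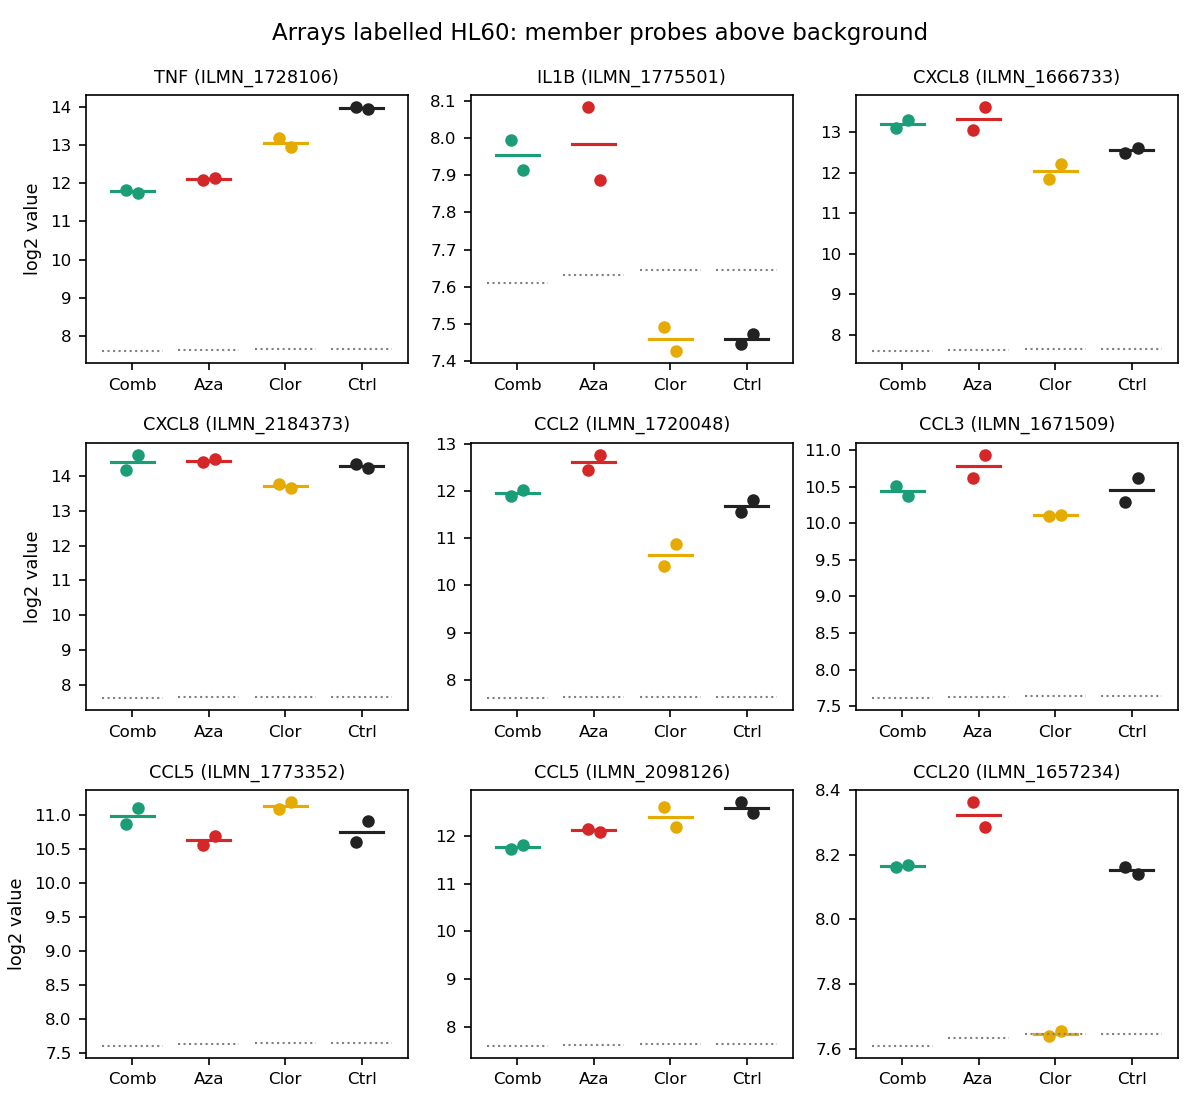
Log2 values of the 9 member probes above background on the HL60 arrays. Each panel has its own vertical scale in log2 units. The horizontal axis gives the combinatorial treatment (Comb), 5-Aza-CdR (Aza), clorgyline (Clor) and control (Ctrl). Points are arrays, bars are means of 2 arrays and dotted lines are the background limit. TNF is lowest with the combinatorial treatment, at 11.84 and 11.75, and highest in control cells, at 13.998 and 13.95.

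IL1B, the other early cytokine above background, moved the other way, and its control level lay below the background limit. It read 7.99 and 7.91 under the combinatorial treatment, 8.08 and 7.89 under 5-Aza-CdR, 7.49 and 7.43 under clorgyline and 7.45 and 7.47 in control cells. Both conditions with 5-Aza-CdR were above the background limit, and the other 2 were below it. With the 75th percentile of all probes as the limit, IL1B was above it in no HL60 condition. IL1B rose by 0.49 when both drugs were given (SE 0.09, limma adjusted p = 0.00357) and by 0.52 with 5-Aza-CdR (adjusted p = 0.00406 from limma). With clorgyline it differed by 0.00 (95% interval -0.20 to 0.20). IL6 was below background on all 8 HL60 arrays, at 7.39 to 7.50.

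Among the chemokines, CCL2, which attracts monocytes, moved in opposite directions with the 2 single drugs. CCL2 read 11.90 and 12.03 under the combinatorial treatment, 12.44 and 12.77 under 5-Aza-CdR, 10.42 and 10.87 under clorgyline, and 11.56 and 11.81 in control cells. The 5-Aza-CdR arrays were the highest and the clorgyline arrays the lowest, with no overlap between conditions. CCL2 rose by 0.92 with 5-Aza-CdR (SE 0.15, adjusted p = 0.0028 from limma) and fell by 1.04 under clorgyline (limma adjusted p = 0.00732, SE 0.15, 2.06-fold lower). With the combinatorial treatment it differed from control by 0.28 (95% interval -0.05 to 0.60, adjusted p = 0.36 from limma), and it was 0.64 lower than with 5-Aza-CdR (adjusted p = 0.0475 from limma) and 1.32 higher than with clorgyline (adjusted p = 1.37e-04 from limma). The clorgyline call rested on single arrays: without control replicate 2 the difference was -0.91 and without clorgyline replicate 1 it was -0.81, both short of the fold limit, and limma gave adjusted p values of 0.089 and 0.0733. The 5-Aza-CdR difference passed the fold limit without control replicate 2, at 1.05, and without 5-Aza-CdR replicate 1, at 1.08.

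CXCL8, the neutrophil chemokine interleukin-8, was measured by 2 probes that differed in part. Probe ILMN_1666733 read 13.09 and 13.30 under the combinatorial treatment, 13.06 and 13.62 under 5-Aza-CdR, 11.84 and 12.23 under clorgyline and 12.48 and 12.62 in control cells. Probe ILMN_2184373 read 14.19 and 14.62, 14.39 and 14.50, 13.77 and 13.66, and 14.35 and 14.24 in the same order of conditions. On both probes the clorgyline arrays were the lowest. By ILMN_1666733, CXCL8 rose by 0.79 with 5-Aza-CdR (adjusted p = 0.0138 from limma) and by 0.65 with the combinatorial treatment (adjusted p = 0.0256 from limma), whereas ILMN_2184373 differed by 0.15 (95% interval -0.12 to 0.42) and 0.11 (-0.16 to 0.38). With clorgyline the differences from control were -0.51 (limma adjusted p = 0.265) and -0.58 (limma adjusted p = 0.0618). The combinatorial treatment was higher than clorgyline by 1.16 by ILMN_1666733 (SE 0.17, adjusted p = 7.588e-04 from limma, 0.97 without clorgyline replicate 1) and by 0.69 by ILMN_2184373 (adjusted p = 0.0034 from limma). Without 5-Aza-CdR replicate 1, the difference of 5-Aza-CdR from control by ILMN_1666733 was 1.07, past the fold limit.

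CCL5, also called RANTES, which attracts T cells and monocytes, gave opposite signs by its 2 probes with the combinatorial treatment. Probe ILMN_2098126 read 11.72 and 11.82 under the combinatorial treatment, 12.15 and 12.08 under 5-Aza-CdR, 12.61 and 12.18 under clorgyline and 12.70 and 12.48 in control cells. By this probe CCL5 fell by 0.82 when both drugs were given (SE 0.13, limma adjusted p = 0.0013) and by 0.48 with 5-Aza-CdR (adjusted p = 0.0478 from limma). Probe ILMN_1773352 read 10.87 and 11.11, 10.56 and 10.70, 11.09 and 11.19, and 10.60 and 10.91 in that order, a difference of 0.24 with the combinatorial treatment (95% interval -0.02 to 0.49, adjusted p = 0.296 from limma). Its values overlapped between the combinatorial treatment and control, so the direction of CCL5 is not settled by these probes.

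CCL20, a chemokine for cells that carry the receptor CCR6, was low in HL60, at 8.16 and 8.17 under the combinatorial treatment, 8.36 and 8.28 under 5-Aza-CdR, 7.64 and 7.65 under clorgyline and 8.16 and 8.14 in control cells. It fell by 0.51 under clorgyline to about the background limit (SE 0.08, adjusted p = 0.0131 from limma), while the combinatorial treatment differed from control by 0.01 (95% interval -0.16 to 0.19) and stood 0.52 above clorgyline (adjusted p = 0.0013 from limma). CCL3, also called MIP-1α, read 10.51 and 10.38 under the combinatorial treatment, 10.62 and 10.94 under 5-Aza-CdR, 10.10 and 10.11 under clorgyline and 10.29 and 10.62 in control cells. None of its differences from control passed the test, and the largest was -0.35 with clorgyline (95% interval -0.62 to -0.07, adjusted p = 0.347 from limma). CCL3 has near-identical gene copies that such a probe may also detect. The related neutrophil chemokines CXCL1 and CXCL2 were below background on the HL60 arrays, at 7.36 to 7.53 and 7.14 to 7.47, and their promoter windows hold the same 9 letters as that of CXCL8.

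Over the 12 member probes in HL60, 1 was called with the combinatorial treatment, against 1.1% of all 47229 probes tested, and 4 passed the adjusted p, 2 higher and 2 lower, against 10.9% of all probes. With 5-Aza-CdR, 1 was called against 0.8% of all probes, and 5 passed the adjusted p, 3 higher and 2 lower, against 6.68%. With clorgyline, 1 was called against 0.123%, and 3 passed the adjusted p, all lower, against 0.711%. Between the combinatorial treatment and 5-Aza-CdR, no member was called, against 0.0699%, and 1, CCL2, passed the adjusted p, against 2.39%. At an unadjusted limma p under 0.05 there were 5 member probes and 6149 of all 47229 probes. Between the combinatorial treatment and clorgyline, 3 were called, against 0.963%, and 7 passed the adjusted p, 5 higher and 2 lower, against 9.33%. For the interaction, no member was called, against 0.104%, and none passed the adjusted p, against 0.169%. Here 3 member probes and 3495 of all probes had an unadjusted limma p under 0.05. The median difference over the 12 probes was 0.10 under the combinatorial treatment, 0.15 under 5-Aza-CdR and -0.27 under clorgyline, against -0.0049, -0.0027 and -7e-04 over all probes. The 3 comparisons share the control arrays. The medians are not of like sets, since 9 of the 12 member probes and 42.5% of all probes were above background. CXCL8 and CCL5 also enter with 2 probes each.

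**Figure D2:**
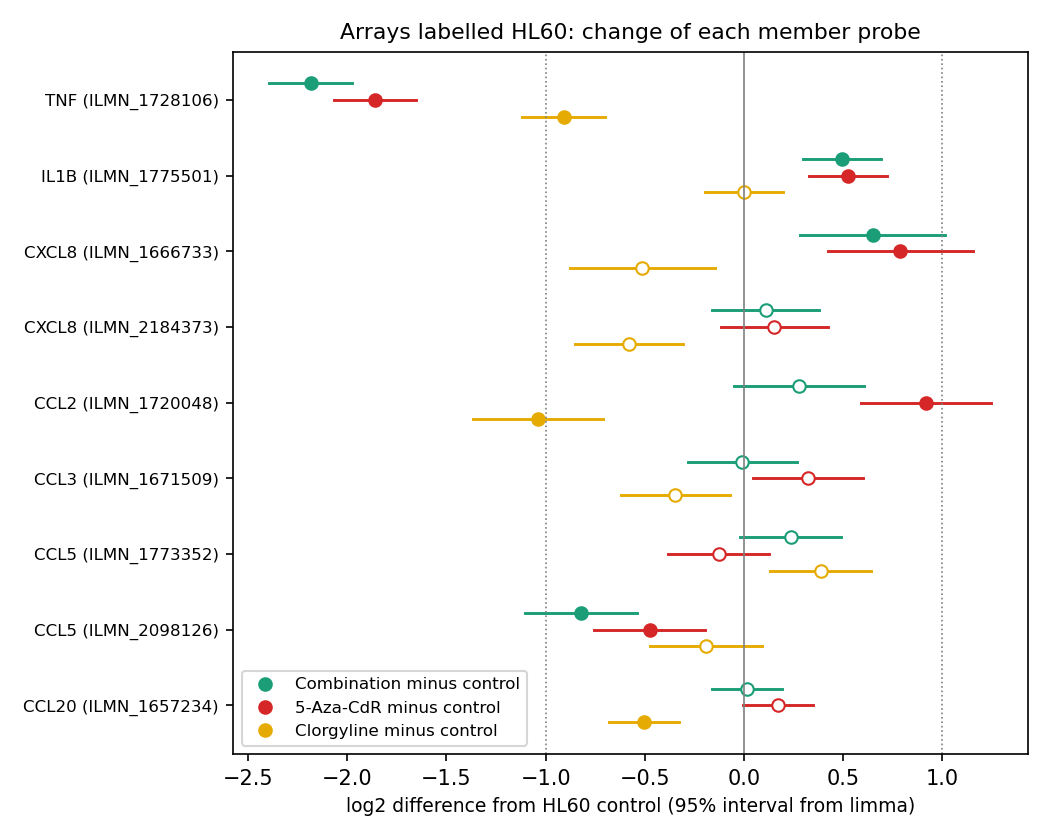
Log2 difference of each treatment from HL60 control for the 9 member probes above background. The horizontal axis is the log2 difference with its 95% interval from limma, circles are filled where the adjusted p was under 0.05, and dotted lines mark the fold limit of 2. TNF lies left of 0 under all 3 treatments, from -2.18 to -0.91, while CCL2 lies at 0.92 with 5-Aza-CdR and -1.04 with clorgyline.

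Markers of cell identity also differed between the HL60 conditions. The summed log2 level of the promyelocytic markers over background was 33.2 to 34.1 under the combinatorial treatment, 31.3 to 31.5 under 5-Aza-CdR, 26.5 to 27.6 with clorgyline and 26.7 to 26.9 in control cells. The summed lymphoid markers, 3 of 4 above background with the combinatorial treatment and 2 of 4 in the other conditions, were 5.02 to 5.13, 3.63 to 3.71, 1.82 to 2.16 and 2.14 to 2.21 in that order. The summed monocyte and macrophage markers were 2.85 to 3.46, 3.19 to 4.36, 3.38 to 3.56 and 3.64 to 4.12, with CD163 and MRC1 not above background in any condition. Their part in the changes of the cytokines was not tested.

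The genes around the cytokines were followed in 8 lists of receptors and antagonists, NF-kB subunits and regulators, Toll-like and interleukin-1 receptor signaling, cytokine processing, AU-rich element decay, other cytokines, other chemokines and other NF-kB targets, with 124 measured genes and 1 probe each. In HL60, 28 of 124 passed the adjusted p with the combinatorial treatment, 17 higher and 11 lower, a share of 22.6% against the 10.9% of all probes, and 78 of 124 were above background. With 5-Aza-CdR 18 passed, 15 higher and 3 lower, 14.5% against 6.68% of all probes, and with clorgyline 3 passed, 1 higher and 2 lower, 2.42% against 0.711%. These shares are not of like sets. The 124 were named genes by their brightest probe, whereas all probes include unnamed ones, and 42.5% of them were above background. With the combinatorial treatment these included 6 of 16 NF-kB genes, 3 higher and 3 lower, 5 of 18 other NF-kB targets, all higher, 4 of 19 genes of Toll-like and interleukin-1 receptor signaling, 3 of 15 receptors and antagonists, 2 of 8 processing genes, 2 of 7 decay genes, 5 of 20 other cytokines and 1 of 21 other chemokines. The called genes were IL32 and IL10, 1.61% of the 124 against 1.1% of all probes, a share near that of all probes. IL32, a cytokine that can induce TNF, read 12.62 and 12.74 under the combinatorial treatment, 12.16 and 12.42 under 5-Aza-CdR, 11.92 and 11.96 under clorgyline and 11.33 and 11.67 in control cells. It rose by 1.18 when both drugs were given (SE 0.12, limma adjusted p = 5.861e-05). The other IL32 probe, ILMN_1778010, ran the same way, at 10.09 and 10.27 with the combinatorial treatment and 9.84 and 9.71 in control cells. IL10, which restrains inflammatory responses, read 12.83 and 12.59 with the combinatorial treatment and 13.74 and 13.74 in control cells by probe ILMN_2073307, a fall of 1.03 (SE 0.25, adjusted p = 0.0173 from limma). The other IL10 probe, ILMN_1674167, stayed below background at 7.28 and 7.43 with the combinatorial treatment and 7.32 and 7.30 in control cells, so the 2 IL10 probes disagree on whether the gene is expressed. Between the combinatorial treatment and clorgyline, the called gene of these lists, 0.806% against 0.963% of all probes, was CCL23, a CC chemokine, at 8.99 and 9.03 with the combinatorial treatment and 7.72 and 7.71 with clorgyline (log2 difference 1.30, SE 0.09, adjusted p = 1.918e-06 from limma). Its other probe, ILMN_1764030, read 8.04 and 7.92 with the combinatorial treatment and 7.28 and 7.34 with clorgyline, a difference of 0.67.

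On the arrays labelled T24, CXCL8 was the member called, each time in a comparison that involves the combinatorial treatment. Probe ILMN_2184373 read 9.52 and 10.26 under the combinatorial treatment, 8.81 and 8.73 under 5-Aza-CdR, 8.41 and 8.68 under clorgyline and 8.64 and 8.78 in control cells. Both combination arrays were above the 6 others, and they differed from each other by more than the single treatments differed from control. The difference from control was 1.18 (SE 0.23, 2.27-fold, unadjusted p = 0.002067, adjusted p = 0.0582 from limma), past the limits of the call but short of an adjusted p of 0.05. The combinatorial treatment stood 1.12 above 5-Aza-CdR (adjusted p = 0.0947 from limma) and 1.34 above clorgyline (adjusted p = 0.0495 from limma). The excess over the sum of the single effects was 1.29 (SE 0.33, unadjusted p = 0.007347, adjusted p = 0.267 from limma). Probe ILMN_1666733 read 8.64 and 8.57 under the combinatorial treatment, 8.17 and 8.27 under 5-Aza-CdR, 8.34 and 8.37 under clorgyline and 8.32 and 8.27 in control cells, closer to background. By this probe CXCL8 rose by 0.31 (SE 0.04, adjusted p = 0.0181 from limma). 5-Aza-CdR alone differed from control by 0.06 (95% interval -0.50 to 0.62) and clorgyline alone by -0.16 (-0.73 to 0.40) by ILMN_2184373. Without combination replicate 2 the difference from control by that probe was 0.81 and from the single drugs 0.75 and 0.97, short of the fold limit, and without control replicate 1 the difference from control was 1.11 with an unadjusted p of 0.01575 (adjusted p = 0.284 from limma). Without either 5-Aza-CdR array the difference from 5-Aza-CdR was 1.08 to 1.16 with an unadjusted p of 0.0111 to 0.0147 from limma. The interaction kept its call only when combination replicate 1 was the array left out.

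**Figure D3:**
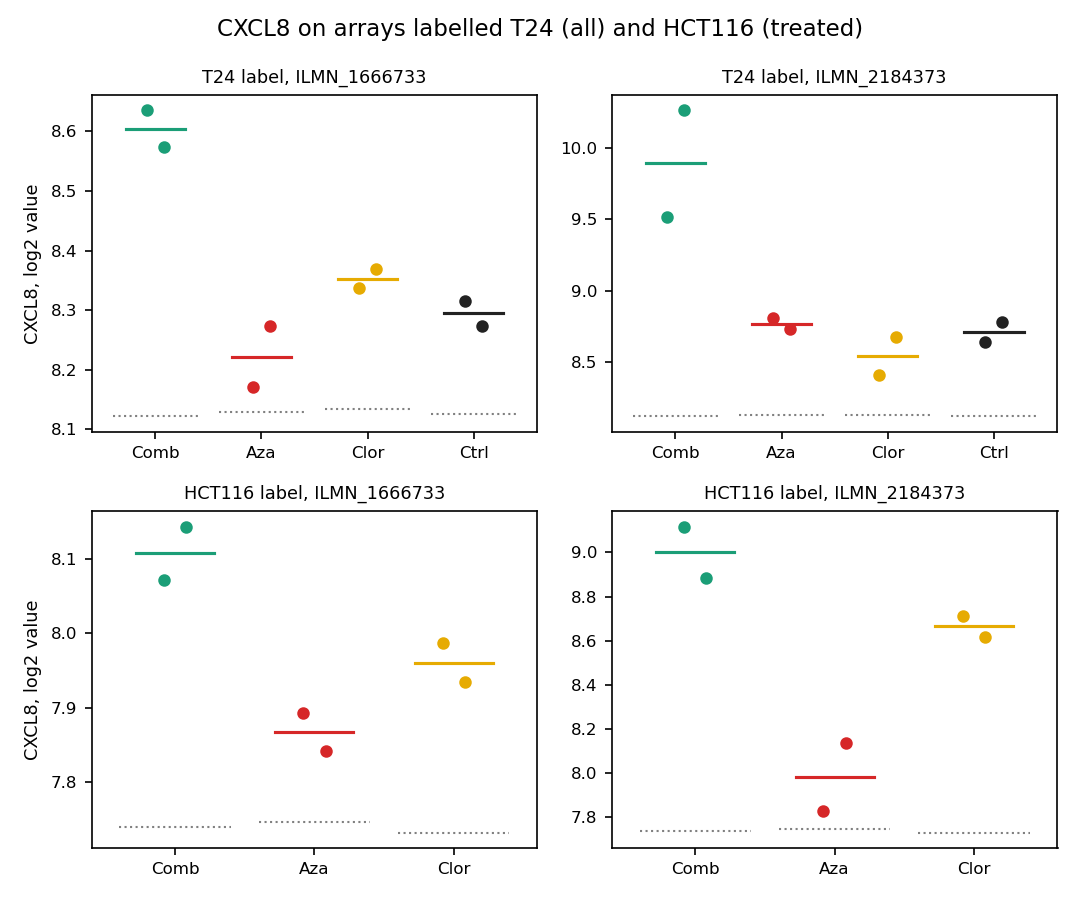
CXCL8 by its 2 probes on the arrays labelled T24 (upper row) and on the treated arrays labelled HCT116 (lower row), as log2 values on a separate vertical scale for each panel. Points are arrays, bars are means of 2 arrays, dotted lines are the background limit, and the horizontal axis gives the combinatorial treatment (Comb), 5-Aza-CdR (Aza), clorgyline (Clor) and control (Ctrl). The combination arrays are the highest in every panel, at 9.52 and 10.26 for ILMN_2184373 in the upper row and 9.12 and 8.88 in the lower.

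The other members were at or near background on the T24 arrays. CCL20 read 8.16 and 8.25 under the combinatorial treatment, 8.06 and 8.05 under 5-Aza-CdR, 8.03 and 8.05 under clorgyline and 8.02 and 8.04 in control cells, above the limit only with both drugs (log2 difference from control 0.17, SE 0.03, adjusted p = 0.056 from limma). CCL5 by ILMN_2098126 read 8.33 and 8.67 under the combinatorial treatment, 8.27 and 8.24 under 5-Aza-CdR, 8.27 and 8.24 under clorgyline and 8.29 and 8.36 in control cells, a difference of 0.18 between combination and control (95% interval -0.07 to 0.43). CXCL1 read 8.17 and 8.14 under the combinatorial treatment, 8.07 and 8.08 under 5-Aza-CdR, 8.13 and 8.17 under clorgyline and 8.07 and 8.10 in control cells. CXCL2 read 8.09 and 8.14, 8.19 and 8.14, 8.12 and 8.12, and 8.14 and 8.10 in that order. Neither CXCL1 nor CXCL2 passed the adjusted p in any T24 comparison. TNF, IL1B, IL6, CCL2 and CCL3 were not above background on both arrays of any T24 condition, at 7.96 to 8.19, although single arrays passed the limit for TNF and CCL3.

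Over the 12 member probes on the T24 arrays, 1 was called with the combinatorial treatment, against 0.282% of all 47231 probes, and 1 passed the adjusted p, against 3.09%. With 5-Aza-CdR none was called, against 0.0699%, and none passed the adjusted p, against 0.119%. None had an unadjusted limma p under 0.05 either, against 3630 of all probes. With clorgyline none was called, against 0.0487%, and none passed the adjusted p, against 0.373%. CXCL1 had an unadjusted limma p under 0.05, as had 4790 of all probes. Between the combinatorial treatment and 5-Aza-CdR 1 was called, against 0.188%, and 1 passed the adjusted p, against 1.43%. Between the combinatorial treatment and clorgyline 1 was called, against 0.263%, and 2 passed the adjusted p, against 2.13%. For the interaction 1 was called, against 0.214%, and none passed the adjusted p, against 0.375%. At an unadjusted limma p under 0.05 there were 4 member probes and 4544 of all probes. Every one of these calls was CXCL8 by ILMN_2184373. None of the 124 genes around the cytokines was called on the T24 arrays, and 10 passed the adjusted p with the combinatorial treatment, 5 higher and 5 lower, 8.06% against 3.09% of all probes. These sets are again unlike, since 73 of the 124 were above background and 40.9% of all probes were.

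On the treated arrays labelled HCT116, CXCL8 was again the member with the clearest difference, now between the arrays that had received clorgyline and those that had not. Probe ILMN_2184373 read 9.12 and 8.88 with the combinatorial treatment, 8.71 and 8.62 with clorgyline and 7.83 and 8.14 with 5-Aza-CdR, without overlap. The combinatorial treatment was 1.02 above 5-Aza-CdR (SE 0.12, 2.02-fold, unadjusted p = 3.513e-04), and clorgyline was 0.68 above 5-Aza-CdR (SE 0.12), but the adjusted p values were 0.236 and 0.131 from limma. The combinatorial treatment was 0.33 above clorgyline (95% interval 0.02 to 0.65, adjusted p = 0.526 from limma). Without combination replicate 1 or 5-Aza-CdR replicate 1 the difference between the combinatorial treatment and 5-Aza-CdR was 0.90 or 0.86, short of the fold limit. Probe ILMN_1666733 ran in the same order, at 8.07 and 8.14 with the combinatorial treatment, 7.99 and 7.93 with clorgyline and 7.89 and 7.84 with 5-Aza-CdR. CCL5 by ILMN_2098126 read 7.83 and 7.81 with the combinatorial treatment, 8.19 and 8.04 with clorgyline and 7.86 and 7.88 with 5-Aza-CdR, highest with clorgyline alone, with adjusted p values of 0.165 against the combinatorial treatment and 0.197 against 5-Aza-CdR from limma. The 4 probes of CXCL1, CXCL2, CCL3 and CCL5 (ILMN_1773352) lay between 7.63 and 7.93 and those of TNF, IL1B, IL6, CCL2 and CCL20 between 7.56 and 7.70, close to the limit of 7.73 to 7.76.

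Over the 12 member probes on the treated HCT116 arrays, 1 was called between the combinatorial treatment and 5-Aza-CdR, against 0.00847% of all probes, and none passed the adjusted p from limma, against 0%. At an unadjusted p under 0.05 there were 3 member probes and 3542 of all probes. CXCL8 was 1 of 4 probes called in that comparison, a count that ran from 2 (without 5-Aza-CdR replicate 1) to 41 (without combination replicate 2) when 1 array was left out. The others, named after their values were seen, were FOS, an immediate early gene whose protein forms part of AP-1, at 1.30, the small nucleolar RNA SNORD3D at 1.11 and a probe without a gene name at -1.40, all with adjusted p values above 0.05. Between the combinatorial treatment and clorgyline no member was called, against 0.161%, and none passed the adjusted p, against 0.43%. An unadjusted limma p under 0.05 was found for 3 member probes and 4187 of all probes. Between clorgyline and 5-Aza-CdR no member was called, against 0.18%, and none passed the adjusted p, against 0.711%. An unadjusted limma p under 0.05 was found for 3 member probes and 4794 of all probes. Of the 124 genes around the cytokines, 1 was called between clorgyline and 5-Aza-CdR, 0.806% against 0.18% of all probes. It was NFKBIA, which encodes an inhibitor that holds NF-kB in the cytoplasm. NFKBIA read 11.34 and 11.13 with clorgyline and 9.98 and 10.19 with 5-Aza-CdR (log2 difference 1.15, SE 0.10, adjusted p = 0.0245 from limma). Between the combinatorial treatment and clorgyline 1 of the 124 was called, 0.806% against 0.161% of all probes. It was PLAU, the urokinase plasminogen activator. PLAU read 10.84 and 10.05 with the combinatorial treatment and 9.22 and 8.99 with clorgyline (log2 difference 1.34, SE 0.26, adjusted p = 0.179 from limma). The sets are unlike here too, since 66 of the 124 were above background and 37.5% of all probes were.

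The 2 arrays labelled HCT116 control, which stood apart by their markers, also carried the highest cytokine signals of that label. IL1B read 7.56 to 7.62 on the treated arrays and 10.88 and 10.87 on the control arrays. On the control arrays, CXCL8 read 11.75 and 11.27 by ILMN_2184373 and 9.51 and 9.69 by ILMN_1666733. IL6 read 8.21 and 9.10, CXCL1 9.13 and 8.81, CXCL2 8.39 and 8.75, and TNF 7.78 and 8.14. All of these lay above all 6 treated arrays, and CCL5 by ILMN_2098126, at 8.23 and 8.15, overlapped the clorgyline arrays. CCL2, CCL3 and CCL20 stayed at 7.66 to 7.75. Treatment and the difference in markers cannot be told apart on these arrays, so no change from control is given for HCT116.

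**Figure D4:**
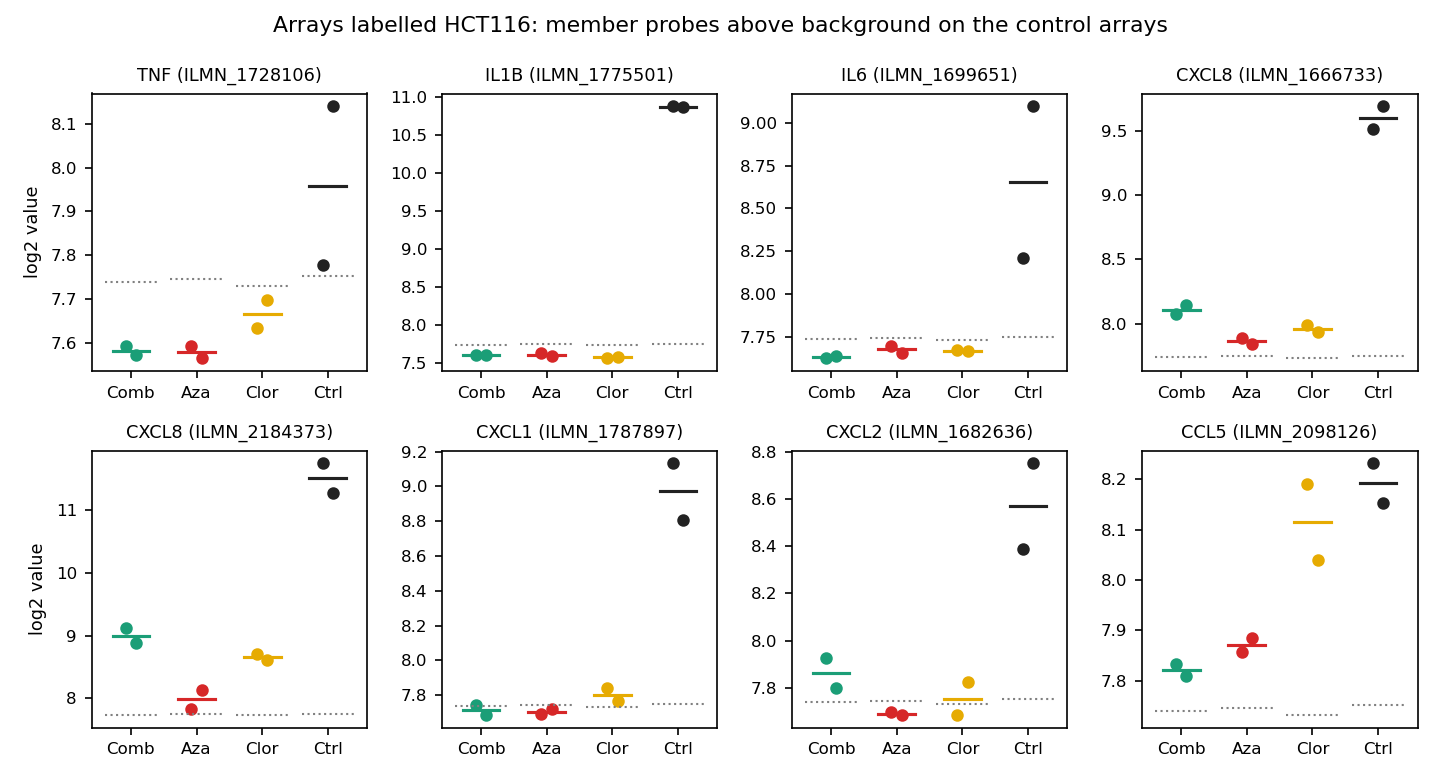
Log2 values of the 8 member probes above background on the arrays labelled HCT116 control, for all 8 arrays with that label. Each panel has its own vertical scale in log2 units, points are arrays, bars are means of 2 arrays, dotted lines are the background limit, and the horizontal axis gives the combinatorial treatment (Comb), 5-Aza-CdR (Aza), clorgyline (Clor) and control (Ctrl). IL1B lies below the limit on the 6 treated arrays and reads 10.88 and 10.87 on the control arrays.

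The effects of the treatments in HL60 and T24 were compared directly in a fit to the 16 arrays of both labels. With the combinatorial treatment, 2 of 12 member probes were called as different, against 1.36% of all probes. TNF differed from control by -2.18 in HL60 and by 0.12 in T24, where it was not above background. The line difference for TNF, HL60 minus T24, was -2.31 (SE 0.10, adjusted p = 6.69e-08 from limma). CXCL8 by ILMN_2184373 differed from control by 0.11 in HL60 and by 1.18 in T24 (HL60 minus T24, -1.07, SE 0.27, adjusted p = 0.0286 from limma). That line difference was -0.70 without T24 combination replicate 2 and -0.86 without HL60 combination replicate 1, both short of the fold limit. By ILMN_1666733 the order was reversed, with 0.65 in HL60 and 0.31 in T24, so the CXCL8 call rests on 1 of its 2 probes. With 5-Aza-CdR, 1 probe was called, against 0.629%, which was TNF at -1.87 (adjusted p = 5.306e-07 from limma). With clorgyline, 1 was called, against 0.248%, which was CCL2 at -1.04 (adjusted p = 0.0173 from limma), a gene below background in T24. Without HL60 control replicate 2 or clorgyline replicate 1 it was -0.91 or -0.81. Other members passed the limits of the call only without a single array. CCL5 by ILMN_2098126, just short of the limit with all arrays, was at -1.03 to -1.17 without T24 control replicate 2, T24 combination replicate 1, HL60 control replicate 2 or HL60 combination replicate 2. CCL2, at 0.95 with 5-Aza-CdR, was at 1.07 without HL60 control replicate 2 and 1.11 without HL60 5-Aza-CdR replicate 1, and without the same 5-Aza-CdR array CXCL8 by ILMN_1666733 was at 1.14. TNF with clorgyline was at -1.02 without HL60 clorgyline replicate 1. Of the genes around the cytokines, BCL2L1, an inhibitor of apoptosis, was called with the combinatorial treatment (log2 difference 1.09, SE 0.16, adjusted p = 0.001238 from limma) and with clorgyline (1.09, adjusted p = 0.005667 from limma), and PLAU with both drugs (1.02, SE 0.17, adjusted p = 0.002673 from limma). The other BCL2L1 probe, ILMN_1742410, gave 0.24 with the combinatorial treatment and 0.19 with clorgyline for the same difference between the lines, so the BCL2L1 calls rest on 1 of its 2 probes. With the combinatorial treatment, PLAU differed from control by -0.83 in T24 and by 0.19 in HL60. BCL2L1 by ILMN_1654118 differed by -0.41 in T24 and by 0.67 in HL60, and with clorgyline by -0.64 and 0.45.

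The genes whose signals followed these members most closely over the 8 arrays of a line were named as a description, since all points share the same 4 treatments. For TNF in HL60 these were MYC, the proliferation-linked transcription factor, with Pearson r of 0.992, ALDH5A1, an enzyme of GABA breakdown, with 0.987, and MRPL30, a mitochondrial ribosomal protein, with 0.984, among 15031 probes above background. MYC averaged 12.79 with the combinatorial treatment and 13.86 in control cells. For CXCL8 by ILMN_2184373 on the T24 arrays these were DPPA5, a gene of pluripotent cells, with 0.993, ZNF705A, a zinc finger gene, with 0.990, and MAGEC1, a cancer testis antigen, with 0.990, among 14848 probes. All 3 were close to background, with means of 8.23 to 8.49 under the combinatorial treatment and of 8.01 to 8.07 in control cells, below the limit of 8.12 to 8.15, so each cleared the limit only on some arrays.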

How the data were processed

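The authors hybridised RNA to Illumina HumanHT-12 V4 arrays and processed the intensities with the lumi package (version 2.6.0 for T24 and HCT116 and 2.8.0 for HL-60, per the submitters' processing notes). As deposited, the table holds log2 intensities after the Robust Spline Normalization run by the authors, and background correction is not given in the sources used here. Sorted values differed by at most 0.0052 between arrays of a line, so a change in total RNA could not be seen. Of 47231 probes, 30113 had 1 gene symbol in the platform annotation, 8 had several and 17110 were unnamed, and 2 HL60 probes with missing values were left out. Array number limits the precision, at 2 arrays per condition.

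R 4.3.3 and limma 3.58.1 were used. Each line got 1 model of its condition means, with the spread shared over 4 conditions (3 for the treated HCT116 arrays), and the HL60 and T24 difference on 16 arrays. In limma the spread of each probe was also drawn toward that of all probes. For HL60 this gave 8.01 prior degrees of freedom beside 4 residual ones. Groups came from the labels. The alternatives were other thresholds, a filter on dim probes, quantile normalization, fewer or all arrays in the fit, eBayes run robustly and with a trend, a block for replicate number, the brightest probe of each gene, another background limit and leaving out each array. The fits were tested on simulated data. Members, lists and tests were chosen with earlier results of these data known. Named genes are the 10 members, up to 4 called genes of each list in a comparison, and the 3 most correlated genes of the member with the widest spread in T24 and in HL60. Of the 8 gene lists, 1 probe was used per gene, the brightest in the line. Promoter sequences are from the RefSeq table of GRCh38.p14. DNA methylation, ChIP and growth data were not analysed here.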

Additional observations from a re-analysis of the deposited data

Results flagged for a closer look

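Each of the following was singled out because the effect of a treatment differed between HL60 and T24 in the limma fit to 16 arrays. With the combinatorial treatment TNF differed from control by -2.18 in HL60 and by 0.12 in T24 (HL60 minus T24, -2.31). With 5-Aza-CdR it differed by -1.86 in HL60 and by 0.01 in T24 (-1.87). CXCL8 by probe ILMN_2184373 differed from control by 0.11 in HL60 and by 1.18 in T24 with the combinatorial treatment (HL60 minus T24, -1.07). Its other probe, ILMN_1666733, had the reverse order, with 0.65 in HL60 and 0.31 in T24. With clorgyline CCL2 differed from control by -1.04 in HL60 and by 0.00 in T24 (HL60 minus T24, -1.04). TNF and CCL2 were not above background in any T24 condition, where a fall could not have been measured.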

How the results depend on the processing

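Log2 differences under the alternatives were counted only for member probes above background and called under at least 1 setting. Of these, 345 stayed on the same side of the call, 23 lost it, 12 gained it and none changed direction. Differences that large leave little room for a change of sign, and the smaller ones were not counted. With an adjusted p under 0.05 beside the fold limit, the count of called member probes became 0 for T24 with the combinatorial treatment, for T24 combination against 5-Aza-CdR, for the T24 interaction and for HCT116 combination against 5-Aza-CdR. With the adjusted p and no fold limit, it was 2 for T24 combination against clorgyline, 0 for the T24 interaction, 0 for HCT116 combination against 5-Aza-CdR, and in HL60 4 for the combination, 5 for 5-Aza-CdR, 3 for clorgyline, 1 for combination against 5-Aza-CdR and 7 for combination against clorgyline. The differences between lines gave 4, 4 and 3 by that rule with the combinatorial treatment, 5-Aza-CdR and clorgyline. When the fit held no arrays but those of the compared pair, T24 combination against 5-Aza-CdR gave 0. Leaving out 1 array gave 0 to 1 called member probes for T24 combination against control, against 5-Aza-CdR and against clorgyline and for the T24 interaction, 1 to 3 for HL60 with 5-Aza-CdR, 0 to 1 for HL60 with clorgyline, 2 to 3 for HL60 combination against clorgyline, 0 to 1 for HCT116 combination against 5-Aza-CdR, and 1 to 3, 1 to 3 and 0 to 1 for the line differences in the same order. With the 75th percentile of all probes as background limit, 2 member genes were above it in T24 and 2 on the treated HCT116 arrays. In HL60 5 were above it, without IL1B and CCL20, and on the HCT116 control arrays 6 were, without TNF.

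A paired analysis with the replicate block left each count of called member probes as it was (1 for TNF with the combinatorial treatment in HL60, for example). No source says that a replicate number marks a shared culture, and the replicate differences of 2 conditions correlated at -0.14 to 0.29. Over all probes, the count called for HCT116 combination against 5-Aza-CdR ran between 2 and 41 when 1 array was left out (4 with all), for the HL60 interaction between 44 and 167 (49), and for HL60 combination against 5-Aza-CdR between 33 and 115 (33). The highest of these came without HCT116 combination replicate 2 and, for both HL60 counts, without HL60 5-Aza-CdR replicate 1, which also took the HL60 5-Aza-CdR count to 605 (378 with all). With the adjusted p and no fold limit, the counts were 1461 for T24 with the combinatorial treatment (133 by the methods' limits) and in HL60 5146 for the combination (520), 3155 for 5-Aza-CdR (378) and 336 for clorgyline (58). With the brightest probe of each gene, the methods' limits called 85 of 20046 probes in T24 with the combinatorial treatment. In HL60 they called 335 of 20045 with that treatment. With all probes the counts were 133 of 47231 in T24 and 520 of 47229 in HL60. The cause of these shifts was not tested. Signals close to background, such as those of the member probes other than CXCL8 on the T24 arrays, limit what can be seen, since fold changes there are compressed.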
